A study of Mus musculus with 4 samples.

Results

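Interferon-stimulated genes are the genes that cells switch on after an interferon binds its receptor, and their transcripts were followed here through the leukocytes of mouse mammary tumors. The set was a list of 45 genes named by symbol, of which 43 were analysed among the 32285 gene columns of the raw count table. None of the 43 served to gate a cell type. By role they fall into 4 genes of the IFIT family, 3 of the ISG15 system, 5 of the oligoadenylate synthetase (OAS) family, 11 antiviral effectors, 8 sensors of RNA and DNA, 3 transcription factors and 9 interferon-inducible GTPases. Levels are given as UMIs (unique molecular identifiers, each standing for 1 captured transcript) per 10000 UMIs of a cell type in a tumor.

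Type I interferons (the alpha family and interferon beta) act through the receptor chains Ifnar1 and Ifnar2, and the kinases Jak1 and Tyk2 then activate a factor, of which STAT2 and IRF9 are parts, that binds the interferon-stimulated response element, or ISRE. Interferon gamma, made chiefly by T and NK cells, acts through Ifngr1 and Ifngr2 on genes that carry the gamma-activated site, or GAS. The IFIT, OAS and ISG15 genes are textbook targets of the type I pathway, whereas the GTPases of the GBP and IRG families answer strongly to interferon gamma. In tumors, both kinds of interferon are known to act on leukocytes and to raise antigen presentation and chemokines.

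The tumors grew from EO771 cells, a mouse mammary cancer line, in the mammary fat pads of female C57BL/6 mice. Control mice carried floxed alleles of the receptor gene Csf1r (Csf1rfl/fl), and Lyve1CreCsf1rfl/fl mice carried the same alleles with a Cre recombinase driven from Lyve1, so that Csf1r is deleted where Lyve1 is active. Lyve1 is also a gene of lymphatic endothelium, so the deletion is not restricted to macrophages by design. Viable CD45+ cells came from 2 tumors per genotype. Each of the 2 Chromium runs combined 1 Csf1rfl/fl and 1 Lyve1CreCsf1rfl/fl tumor, whose cells carried different hashtag antibodies. The tumors were taken at one late size without other treatment, and both genotypes shared the strain, the sex, the implanted line, the sort and the floxed alleles. Replicate 1 of a genotype is its tumor in run 1 and replicate 2 its tumor in run 2. Wherever 4 values follow each other, they are Csf1rfl/fl replicates 1 and 2 and then Lyve1CreCsf1rfl/fl replicates 1 and 2.

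Promoter sequence was at hand from RefSeq (GRCm38.p6) for 35 of the 43 genes, as 250 bases before and 50 bases after the transcription start. An ISRE core was searched as GAAA, any 2 bases and GAAA, on both strands, so that on the other strand it reads TTTC, any 2 bases and TTTC. A GAS core was searched as TTC, any 3 bases and GAA, which reads the same on both strands. The ISRE core lay in 22 of the 35 promoters (62.9%), and in 1079 of the promoters of 27025 genes (3.99%). The GAS core lay in 8 of the 35 (22.9%), against 9.55% of all genes, and both lay in 6 of the 35 (17.1%), against 0.54%. The 8 genes with no entry were Usp18, Oas2, Rtp4, Parp14, Dhx58, Zbp1, Ifi204 and Gbp4. A match describes letters and is neither a bound site nor a cause of a level.

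The sequences below are the motif-bearing stretches of 9 promoters whose genes carry the patterns described further on. They are written 5′ to 3′ on the strand of the gene, with 12 bases of flank where the window allowed, and capitals mark the ISRE and GAS cores. The first 5 belong to genes that were highest in neutrophils, Bst2 was highest in plasmacytoid dendritic cells, and the last 3 are the GTPases with their highest mean in Tregs.
Isg15, chr4:156200863-156200908, minus strand: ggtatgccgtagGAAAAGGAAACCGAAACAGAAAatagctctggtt
Ifit1, chr19:34640773-34640825, plus strand: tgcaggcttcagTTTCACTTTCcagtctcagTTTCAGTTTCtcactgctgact
Ifit3, chr19:34583361-34583428, plus strand: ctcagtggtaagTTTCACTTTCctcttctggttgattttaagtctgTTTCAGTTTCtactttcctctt
Ifit3b, chr19:34607757-34607824, plus strand: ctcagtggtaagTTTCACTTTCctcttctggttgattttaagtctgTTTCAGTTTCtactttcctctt
Rsad2, chr12:26456551-26456584, minus strand: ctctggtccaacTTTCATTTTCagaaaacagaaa
Bst2, chr8:71537575-71537620, minus strand: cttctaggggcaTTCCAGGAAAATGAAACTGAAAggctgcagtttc
Igtp, chr11:58199499-58199543, plus strand: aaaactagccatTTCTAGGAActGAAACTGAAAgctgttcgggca
Irgm2, chr11:58214890-58214934, plus strand: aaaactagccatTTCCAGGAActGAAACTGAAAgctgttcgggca
Gbp7, chr3:142530218-142530304, plus strand: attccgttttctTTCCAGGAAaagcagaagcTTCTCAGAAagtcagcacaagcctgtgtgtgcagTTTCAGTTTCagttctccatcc
The stretches of Ifit3 and Ifit3b were identical over 68 bases, and reads of these near copies may be shared between them, so their separate levels are uncertain. Those of Igtp and Irgm2 differed at 1 of 45 bases. In Bst2 the GAS core overlaps the ISRE core. Of 8 GTPases with a promoter, 7 held an ISRE core and 4 a GAS core, and those 4 held both. Of the 27 genes outside the GTPases, 15 held an ISRE core and 4 a GAS core. Igtp, Irgm2 and Gbp7 all held both cores, and their lead in Tregs was one of means only, with ranges that overlapped the next cell type.

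The raw table held 53361 barcodes, of which the authors kept 28429, and between 4771 and 8699 kept cells came from each tumor at a median of 3721 to 4657 UMIs. Gates on lineage markers placed 19207 of these cells (67.6%) in 14 cell types, from 185 Trdc+ T cells to 5439 neutrophils. Median depth ranged from 2063 UMIs in neutrophils to 11373 in cDC1 and 46425 in the cells gated as tumor and stroma, which a CD45 sort should leave out. Cells with markers of more than 1 lineage (12.1% of kept cells) and cells passing no gate were not compared. The authors had earlier removed clusters of lymphocytes that came almost only from Lyve1CreCsf1rfl/fl replicate 2. Lymphocyte levels and shares of kept cells therefore cover only the cells that stayed, which matters most for that tumor. Among 18 markers that the gates did not use, 14 were highest in the cell type they mark, and the exceptions were Clec10a, H2-Ab1, Cd74 and Irf8. Clec10a, H2-Ab1 and Cd74 were all of such markers of Cd209a DC, and were highest in plasmacytoid DC or cDC1. Neutrophils, CD8 T cells, Cd4+ Foxp3- T cells and tumor and stroma cells had no marker outside the gates. Transcripts of Csf1r were still counted in Lyve1CreCsf1rfl/fl tumors, at 1.87, 2.45, 1.47 and 1.63 per 10000 in C1q macrophages and 2.62, 2.46, 1.72 and 1.54 in monocytes, and 3′ reads need not fall in the deleted part, so they do not check the deletion. Lyve1 had 2, 1, 0 and 0 UMIs in C1q macrophages. Free RNA from other cells was not measured apart from the gates, and its part in the low levels below was not tested.

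Summed over the 43 genes, the level was highest in Ly6c2-high monocytes and neutrophils and lowest in NK cells and the tumor and stroma cells. Monocytes held 165, 199, 151 and 178 UMIs per 10000 in the 4 tumors (173 ± 20.2, SD, n = 4). Neutrophils held 142, 206, 146 and 176 (168 ± 29.9), overlapping the monocytes in range. C1q macrophages followed with 117, 140, 132 and 135 (131 ± 9.51), below both of the former in each tumor.
Arg1 Mmp12 Gpnmb macrophages (96.9 ± 19.0), Cd209a dendritic cells (DC; 95.9 ± 12.4) and plasmacytoid DC (88.8 ± 5.37) had overlapping ranges. The plasmacytoid sum rested in good part on a single gene: without Bst2 and Isg20, which some lineages hold at rest, it was 57.2. Among lymphocytes, Cd4+ Foxp3- T cells held 70.9 ± 10.5 and Tregs 59.6 ± 7.25, and CD8 T cells held 40.8 ± 3.90 and NK cells 37.4 ± 5.85. The mean of mature DC (61.9 ± 9.52) lay between those of Cd4+ Foxp3- T cells and Tregs. The means of cDC1 (56.6 ± 8.87) and Trdc+ T cells (52.6 ± 17.5) lay between those of Tregs and CD8 T cells. The tumor and stroma cells were lowest at 31.8 ± 5.09. Neighbours in this order mostly overlapped, as the plot of summed levels shows.

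**Figure D1:**
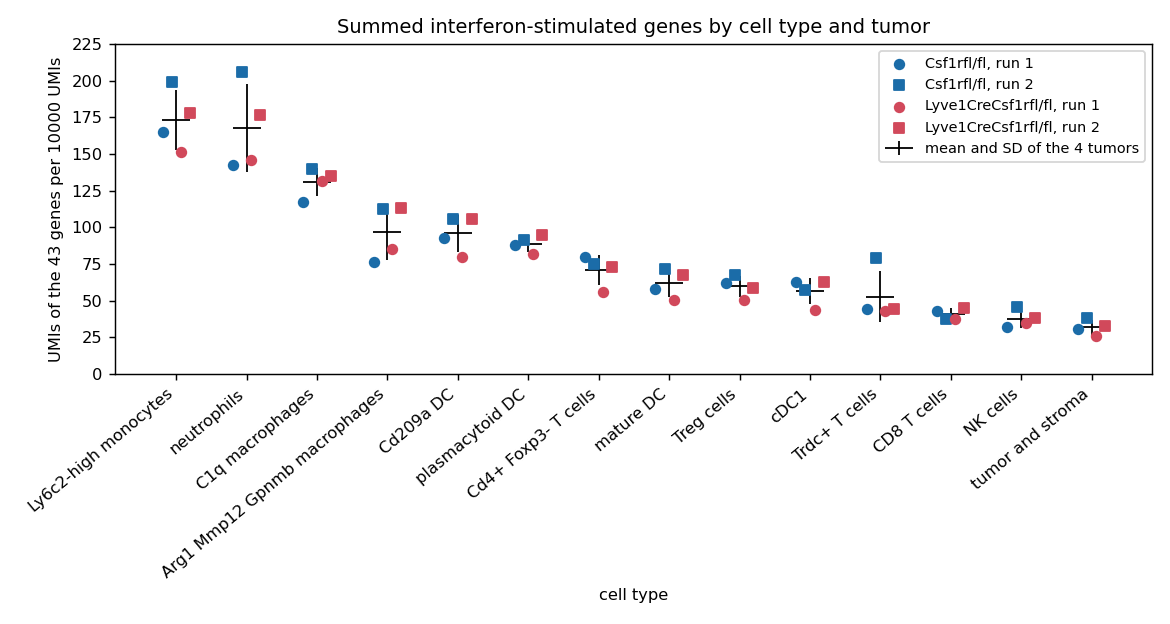
UMIs of the 43 interferon-stimulated genes per 10000 UMIs (y axis) in 14 gated cell types (x axis), with 1 point per tumor and a black bar for the mean ± SD of the 4 tumors. Monocytes (173) and neutrophils (168) stand at the top, and NK cells (37.4) and tumor and stroma cells (31.8) at the bottom.

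The order differed between genes. Of the 43 genes, 18 had their highest mean level in neutrophils and 17 in monocytes, and the top cell type was the same in every tumor for 13 and 12 of these. The other 8 were Igtp, Irgm2 and Gbp7 (Tregs), Bst2 and Ifi44 (plasmacytoid DC), Gbp5 (mature DC), Ifi205 (cDC1) and Gbp4 (Trdc+ T cells). The top cell type was the same in every tumor for Bst2, Ifi44, Gbp5 and Ifi205, whereas Igtp, Irgm2 and Gbp7 were highest in Tregs in 2 of 4 tumors and Gbp4 in Trdc+ T cells in 3 of 4. The lowest level lay in tumor and stroma cells for 25 genes and in cDC1 for 13. So the cell types at the foot of the list were not the same for every gene: Isg15 and Isg20 were lowest in NK cells, Ifi44 and Ifi204 in CD8 T cells and Bst2 in neutrophils.

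**Figure D2:**
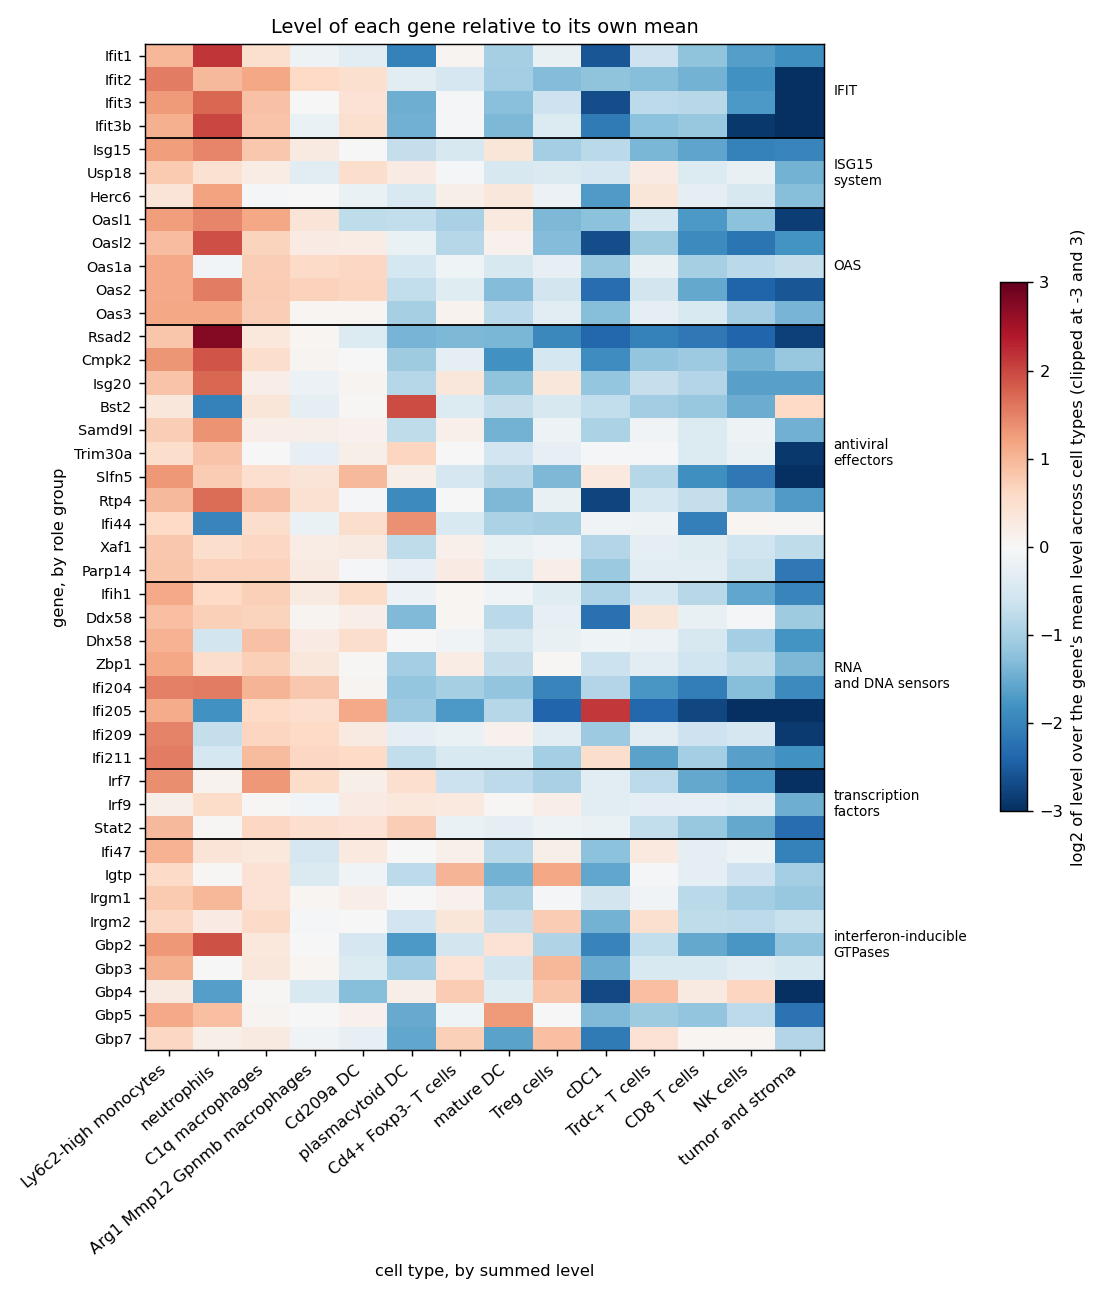
Level of each of the 43 genes (rows, ordered by role group) in each cell type (columns, ordered by summed level), as log2 of the level over the mean of that gene across cell types, limited to ±3. Neutrophils and monocytes carry the highest value of 18 and 17 genes, while Igtp and Gbp7 also stand above their own mean in Tregs and Cd4+ Foxp3- T cells, and Ifi205 stands out in cDC1.

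Each cell type was next set against the mean of the other 13 in edgeR's quasi-likelihood test on UMIs summed per tumor, with the tumor as a block and 11452 genes tested, and a gene was called at an adjusted p under 0.05. Fold changes were scaled by TMM, which centres most genes, whereas levels per 10000 are scaled by UMI totals. The 2 scales part in neutrophils, whose 20 most abundant genes held 37.9% of UMIs against 16.3% to 25.1% elsewhere: the median log2 fold change of all genes there was -0.07 by TMM and -1.15 by UMI totals. The corresponding medians were 0.01 and -0.34 in mature DC, 0.02 and 0.35 in Cd4+ Foxp3- T cells, 0.03 and 0.36 in Tregs, 0.06 and 0.24 in CD8 T cells, 0.03 and 0.20 in NK cells and -0.16 and 0.16 in Trdc+ T cells. Counts under UMI totals are therefore printed beside those under TMM where the split moved.

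All 43 genes were higher in monocytes (32.7% of all genes tested were called higher there), with a median log2 fold change of 1.53. In neutrophils 39 were higher and 2 lower (36.3% and 34% of all genes), with a median of 2.14, and under UMI totals 34 were higher and 6 lower (17.8% and 61.8%), with a median of 1.01. C1q macrophages had 40 higher and 0 lower (27.5% and 18.2%). These 3 cell types had the highest medians under both scalings.
Cd209a DC had 31 higher and 1 lower (22.0% and 11%), and Arg1 Mmp12 Gpnmb macrophages 23 higher and 1 lower (21.0% and 12.2%). Mature DC were mixed, with 14 higher and 15 lower (33.9% and 26.8%), and with 7 and 29 under UMI totals (22.0% and 41.5%). Plasmacytoid DC had 7 higher and 22 lower (22.8% and 16%), and cDC1 3 higher and 32 lower (25.5% and 19.5%). The dendritic cell types thus stood on both sides of the mean, with Cd209a DC above it and cDC1 and plasmacytoid DC mostly below.
Lower calls prevailed in CD8 T cells, with 1 higher and 40 lower (35.9% and 24.6%), in NK cells, with 1 and 36 (29.4% and 22.7%), and in tumor and stroma cells, with 1 and 41 (39.3% and 37.5%). Tregs had 6 higher and 26 lower (30% and 22.4%), but 13 and 13 under UMI totals (50.4% and 11.5%). Cd4+ Foxp3- T cells had 5 higher and 12 lower (20.7% and 15.3%), but 20 and 3 under UMI totals (39.8% and 5.64%). Trdc+ T cells had 1 higher and 20 lower (11.2% and 14.5%), but 5 and 11 under UMI totals (18.5% and 7.08%). The split in these 3 lymphocyte types therefore depends on the scaling. Every single gene named below with a fold change for a cell type or pair among the 43 kept its direction and its call under UMI totals. Groups that hold fewer cells of a responding kind and groups whose cells hold less RNA of a gene cannot be told apart in summed counts.

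The IFIT genes encode proteins that bind foreign RNA and block its translation. Their sum was 19.3 ± 3.79 per 10000 in neutrophils, 13.9 ± 1.87 in monocytes and 10.4 ± 1.11 in C1q macrophages, against 1.67 ± 0.36 in NK cells and 1.45 ± 0.66 in cDC1. Ifit1, the IFIT gene with the most UMIs (41723), stood at 6.63, 12.2, 7.63 and 9.21 per 10000 in neutrophils. It stood at 3.25, 4.98, 3.38 and 4.54 in monocytes, so that the 2 cell types did not overlap. In neutrophils all 4 IFIT genes were higher than the mean of the other cell types, with a log2 fold change of 4.03 ± 0.0934 (SE) for Ifit1 (adjusted p = 1.49e-41) and 4.11 ± 0.111 for Ifit3b (adjusted p = 2.34e-38).
Ifit2 peaked instead in monocytes, at 4.81, 6.01, 4.21 and 5.21 per 10000, where its log2 fold change was 2.34 ± 0.108 (adjusted p = 3.65e-26). C1q macrophages overlapped them at 3.06, 4.14, 3.65 and 4.58 (log2 fold change 1.77 ± 0.123, adjusted p = 1.63e-18). The dendritic cells split: Ifit3b was higher in Cd209a DC (1.27 ± 0.193, adjusted p = 2.92e-07), while all 4 IFIT genes were lower in cDC1 (19.5% of all genes were) and 3 of 4 in plasmacytoid DC (16%). Ifit1 in plasmacytoid DC, the cells best known for making type I interferon, stood at 0.482, 0.401, 0.634 and 0.478 per 10000 (log2 fold change -1.66 ± 0.208, adjusted p = 1.42e-09). Ifit3b was lower in NK cells (-2.49 ± 0.256, adjusted p = 2.89e-12) and in tumor and stroma cells (-3.75 ± 0.282, adjusted p = 7.97e-18).

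The ISG15 system comprises Isg15, a ubiquitin-like protein that is attached to other proteins, Herc6, a ligase for it, and Usp18, which removes it and dampens signalling from the type I receptor. Isg15 had the most UMIs of all 43 genes in the kept cells (212083) and was measured at 26.3, 34, 27.4 and 31.2 per 10000 in neutrophils. Monocytes overlapped at 24.6, 30.4, 21.6 and 25.4, and C1q macrophages held 16.3, 19.8, 19.3 and 19.9. Mature DC, which had few IFIT transcripts, still held 12.6, 16.1, 10.7 and 15.9 of Isg15, with a log2 fold change of 1.18 ± 0.0971 (adjusted p = 4.60e-16). NK cells were lowest at 2.12, 3.09, 2.70 and 2.59. Usp18 was highest in monocytes and Herc6 in neutrophils.

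The OAS proteins sense double-stranded RNA, and Oas1a, Oas2 and Oas3 make the messenger that activates RNase L. Oasl2, with the most UMIs of the family, stood at 4.58, 8.23, 5.13 and 7.34 per 10000 in neutrophils and at 2.74, 3.70, 2.64 and 3.45 in monocytes, without overlap. In neutrophils all 5 genes were higher by TMM (36.3% of all genes were), with a median log2 fold change of 3.22, and 4 by UMI totals (17.8%), with a median of 2.09. In cDC1 all 5 were lower by TMM (19.5%), with a median of -1.02, and by UMI totals (23.9%), with a median of -1.12. Oasl1 was higher in C1q macrophages (1.73 ± 0.13, adjusted p = 3.57e-17), where it stood at 1.96, 2.75, 1.96 and 2.59, and lower in Cd4+ Foxp3- T cells (-0.88 ± 0.20, adjusted p = 0.000315). Oas2 was higher in Arg1 Mmp12 Gpnmb macrophages (1.24 ± 0.225, adjusted p = 8.90e-06), at 0.374, 0.788, 0.515 and 1.11. The members of this family have related sequences, and reads that match several of them could be assigned unevenly.

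Among the antiviral effectors, Rsad2 (viperin, an enzyme that makes a chain-terminating nucleotide) marked neutrophils most clearly. Its levels there were 13.2, 31.5, 19.0 and 27.3 per 10000, against 5.07, 7.51, 5.30 and 6.12 in monocytes and 3.30, 5.0, 3.98 and 4.60 in C1q macrophages. The lowest neutrophil value was above the highest monocyte value, and the log2 fold change of neutrophils was 5.17 ± 0.106 by TMM (adjusted p = 2.92e-44) and 4.04 by UMI totals. Cmpk2, a nucleotide kinase encoded beside Rsad2, was highest in neutrophils as well, at 1.60, 2.94, 1.73 and 2.73, and was lower in mature DC (-1.15 ± 0.214, adjusted p = 6.10e-06), at 0.151, 0.224, 0.0968 and 0.219.
Bst2 (tetherin, which holds budding virus at the cell surface and is also a known surface marker of plasmacytoid DC) ran the other way. It stood at 33.7, 25.9, 33.2 and 29.3 per 10000 in plasmacytoid DC and at 3.06, 1.44, 1.88 and 1.39 in neutrophils. Its log2 fold change was 2.35 ± 0.0660 in plasmacytoid DC (adjusted p = 2.31e-36), 0.86 ± 0.0737 in tumor and stroma cells (adjusted p = 1.04e-15) and -0.71 ± 0.0877 in neutrophils (adjusted p = 3.05e-10).
Ifi44 resembled Bst2 in being highest in plasmacytoid DC, at 2.0, 3.08, 2.0 and 2.70 per 10000, and low in neutrophils, at 0.308, 0.195, 0.217 and 0.235. Its log2 fold change was 1.65 ± 0.126 (adjusted p = 8.58e-17) and -0.63 ± 0.142 (adjusted p = 0.000104) in these, and -2.07 ± 0.144 in CD8 T cells (adjusted p = 1.56e-18). Bst2 and Ifi44 were the 2 genes of the 43 that were called lower in neutrophils by TMM.
Slfn5, a Schlafen family member, had its highest mean in monocytes, at 7.59, 12.2, 7.69 and 11.6, with 7.13, 9.24, 6.30 and 8.51 in Cd209a DC. Between monocytes and neutrophils its direction depended on the scaling, as given below. Against the mean of the other cell types, Slfn5 was higher in Cd209a DC (1.59 ± 0.0929, adjusted p = 3.99e-21) and cDC1 (0.92 ± 0.0998, adjusted p = 1.93e-11), and lower in tumor and stroma cells (-3.75 ± 0.148, adjusted p = 6.78e-30). Rtp4, a receptor chaperone, was lower in cDC1 (-2.37 ± 0.188, adjusted p = 4.59e-16), with 0.426, 0.127, 0.0820 and 0.142 per 10000 against 4.11, 4.39, 4.40 and 3.72 in neutrophils.

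The sensors include Ifih1 and Ddx58, helicases that detect viral RNA, Dhx58, which regulates them, Zbp1, which binds nucleic acid in the Z form, and the Ifi200 family, several of which bind DNA. Their sum was 38.6 ± 2.80 per 10000 in monocytes and 26.5 ± 2.20 in C1q macrophages, and cDC1 (19.3 ± 2.44) stood level with neutrophils (19.6 ± 2.08) here. Ifi205 carried this: its levels were 10.4, 10.1, 9.61 and 12.8 in cDC1 and 5.85, 4.86, 4.93 and 6.11 in Cd209a DC, with no overlap. In cDC1 the log2 fold change was 3.47 ± 0.116 for Ifi205 (adjusted p = 2.31e-32) and 1.06 ± 0.0930 for Ifi211 (adjusted p = 1.81e-14), whereas 4 of the 8 sensors were lower there by TMM (19.5% of all genes) and 5 by UMI totals (23.9%).
Ifi205 was also higher in Cd209a DC (2.31 ± 0.133), in monocytes (2.39 ± 0.118) and in Arg1 Mmp12 Gpnmb macrophages (1.63 ± 0.160, adjusted p = 1.22e-12). Every lymphocyte type was below the mean for it, from -1.11 ± 0.203 in Cd4+ Foxp3- T cells (adjusted p = 1.06e-05) to -2.52 ± 0.207 in NK cells (adjusted p = 1.27e-15).
Ifi204, the sensor with the most UMIs (57759), stood at 8.36, 9.41, 7.60 and 8.63 in monocytes and at 7.33, 10.4, 6.84 and 9.60 in neutrophils, which overlapped. It was higher in monocytes (2.37 ± 0.0927, adjusted p = 2.75e-29) and in Arg1 Mmp12 Gpnmb macrophages (1.50 ± 0.120, adjusted p = 7.46e-16), and lower in Tregs (-1.87 ± 0.146, adjusted p = 1.70e-16), at 1.20, 0.805, 0.456 and 0.524. Ifi209 and Ifi211 were highest in monocytes without overlap with the next cell type. The Ifi200 genes lie in a cluster of related copies, so the split of reads between them is uncertain.

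The 3 transcription factors feed back on the pathway: Stat2 and Irf9 are parts of the factor that binds the ISRE, and Irf7 drives the alpha interferons. Irf7 stood at 16.2, 15.8, 12.6 and 14.2 per 10000 in monocytes and at 14, 13.3, 15.3 and 12.8 in C1q macrophages, which overlapped. Its log2 fold change in C1q macrophages was 1.85 ± 0.0872 (adjusted p = 1.54e-25). Plasmacytoid DC, which are known to hold Irf7 at rest, were at 8.46, 8.65, 6.49 and 8.39, below both. Stat2 was higher in plasmacytoid DC (0.92 ± 0.0910, adjusted p = 9.66e-13), with 1.91, 2.59, 1.84 and 2.99 against 2.22, 3.57, 2.0 and 3.10 in monocytes. Tumor and stroma cells were lowest for all 3 factors, with Irf7 at 0.644, 0.598, 0.570 and 0.577.

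The GTPases act at membranes in defence against intracellular microbes. Gbp2, Gbp3, Gbp4, Gbp5 and Gbp7 are guanylate-binding proteins, and Igtp, Irgm1, Irgm2 and Ifi47 belong to the immunity-related GTPases. Their sum was 15.1 ± 3.80 per 10000 in monocytes and 13.3 ± 4.96 in neutrophils, and Tregs (11.2 ± 2.48) and Cd4+ Foxp3- T cells (10.4 ± 1.57) came next, level with C1q macrophages (9.99 ± 2.05). In Tregs 5 of the 9 GTPases were higher and 1 lower by TMM, with a median log2 fold change of 0.63, and 1 of the other 34 genes was higher and 25 lower (30% and 22.4% of all genes). By UMI totals 7 of the 9 were higher and 1 lower, and 6 of the other 34 were higher and 12 lower (50.4% and 11.5%). In Cd4+ Foxp3- T cells 3 of 9 were higher and 0 lower by TMM, and 2 and 12 of the other 34 (20.7% and 15.3%). By UMI totals these were 6 and 0, and 14 and 3 (39.8% and 5.64%). In cDC1, in contrast, 8 of 9 were lower by TMM (19.5%), with a median of -1.34, and 9 by UMI totals (23.9%).
Igtp stood at 1.63, 2.39, 1.69 and 2.07 in Tregs and 1.72, 2.05, 1.89 and 1.45 in Cd4+ Foxp3- T cells, which overlapped. Both were above the mean of the other cell types, by 1.16 ± 0.0939 (adjusted p = 6.70e-16) and 1.03 ± 0.111 (adjusted p = 2.90e-11). Gbp7, at 1.75, 3.34, 2.17 and 2.72 in Tregs, was higher in Cd4+ Foxp3- T cells (0.74 ± 0.113, adjusted p = 3.37e-07) and lower in mature DC (-1.13 ± 0.129) and plasmacytoid DC (-1.58 ± 0.171).
Gbp4 was higher in all 5 lymphocyte types: Trdc+ T cells (1.13 ± 0.179), Tregs (1.0 ± 0.103), NK cells (0.97 ± 0.104), Cd4+ Foxp3- T cells (0.94 ± 0.124) and CD8 T cells (0.58 ± 0.10), with adjusted p from 2.36e-12 to 1.36e-06. Its levels were 0.856, 1.86, 1.46 and 1.63 in Trdc+ T cells and 1.04, 1.72, 1.12 and 1.59 in Tregs. It was also higher in monocytes (0.84 ± 0.101, adjusted p = 2.65e-10), plasmacytoid DC (0.65, adjusted p = 0.000121) and C1q macrophages (0.41, adjusted p = 0.00396), and by TMM alone in mature DC. It was the single gene of the 43 called higher in CD8 T cells, in NK cells and in Trdc+ T cells by TMM, and it was lower in cDC1 (-2.49 ± 0.217, adjusted p = 1.44e-14) and in Cd209a DC (-0.96 ± 0.174, adjusted p = 1.06e-05).
Gbp5 had its highest level in mature DC, and both Gbp5 and Gbp2 were higher there than the mean of the other cell types. Gbp5 stood at 1.46, 2.99, 1.66 and 2.64 in mature DC and 1.30, 2.63, 1.61 and 2.37 in monocytes, and in both cell types the run 2 tumors were above the run 1 tumors. The log2 fold change in mature DC was 2.09 ± 0.106 for Gbp5 (adjusted p = 6.24e-25) and 1.32 ± 0.134 for Gbp2 (adjusted p = 1.06e-12). Gbp2, the GTPase with the most UMIs (24011), was however highest in neutrophils, at 3.11, 7.28, 3.49 and 4.49, followed by monocytes, at 1.99, 4.04, 2.47 and 3.59, and stood at 0.920, 2.43, 1.08 and 2.19 in mature DC. Ifi47 was lower in Arg1 Mmp12 Gpnmb macrophages (-0.37 ± 0.142, adjusted p = 0.0397), and that call was lost without the block, without Csf1rfl/fl replicate 1 and with doubled gate limits.

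The balance of GTPases to IFIT genes was on average higher in lymphocytes than in monocytes, macrophages and neutrophils. The ratio of the sums was 0.571, 0.826, 0.611 and 0.684 in neutrophils (0.673 ± 0.112, SD, n = 4), near 1 in C1q macrophages (0.954) and monocytes (1.08), and 3.05, 3.78, 3.55 and 4.65 in NK cells (3.76 ± 0.669). Tregs (2.95), Trdc+ T cells (2.78), CD8 T cells (2.33) and Cd4+ Foxp3- T cells (2.06) had means above those of Arg1 Mmp12 Gpnmb macrophages (1.17) and Cd209a DC (1.09). Single tumors overlapped, since Cd4+ Foxp3- T cells stood at 1.40, 2.43, 2.48 and 1.92 and Arg1 Mmp12 Gpnmb macrophages at 1.40, 0.935, 0.932 and 1.43. Mature DC (2.52), cDC1 (2.22) and plasmacytoid DC (2.01) had means near those of the lymphocytes, and tumor and stroma cells (3.36) a mean above every lymphocyte type but NK cells. A ratio within a cell type does not depend on how cell types are scaled to each other. A high ratio is not by itself a high GTPase level. By TMM the median log2 fold change of the 9 GTPases was 0.63 in Tregs and 0.23 in Cd4+ Foxp3- T cells. It was -0.12 in Trdc+ T cells (0.20 by UMI totals), -0.48 in CD8 T cells, -0.59 in NK cells and -1.04 in tumor and stroma cells.

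**Figure D3:**
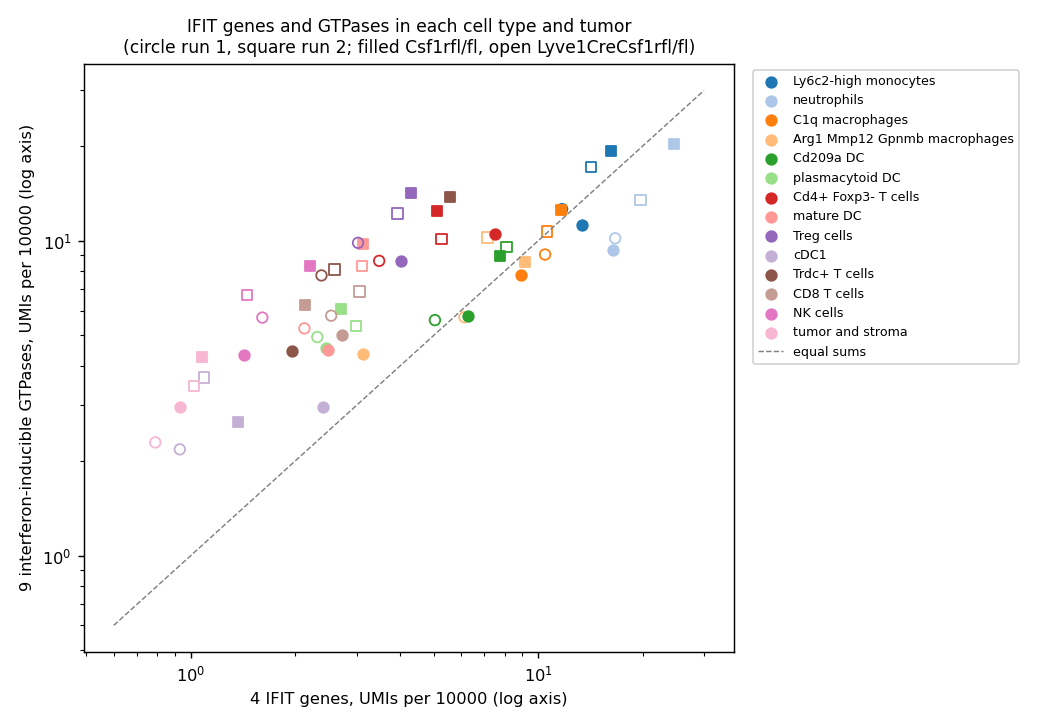
UMIs of the 9 GTPases (y axis) against UMIs of the 4 IFIT genes (x axis), both per 10000 UMIs on log axes, with 1 point per tumor and cell type. Circles are run 1 and squares run 2, filled symbols Csf1rfl/fl and open symbols Lyve1CreCsf1rfl/fl, and the dashed line marks equal sums. Neutrophils lie below the line (ratio 0.673) and NK cells farthest above it (3.76).

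Closely related cell types were also compared directly in the same fit. Between Ly6c2-high monocytes and C1q macrophages, 31 of the 43 genes were higher in monocytes and 0 lower (13.8% and 11.6% of all genes), and 22 and 0 under UMI totals (9.17% and 16.9%). Gbp5 (1.18 ± 0.166, adjusted p = 1.56e-07) and Gbp2 (1.12 ± 0.192, adjusted p = 7.60e-06) differed most. With the tumor left out of the fit 18 were higher (8.25% of all genes). Irf7, as given above, overlapped between the 2 cell types.
Between monocytes and neutrophils the answer depended on the scale. By TMM 8 genes were higher in monocytes and 30 lower (30.2% and 30.6%), and by UMI totals 21 were higher and 14 lower (61.0% and 14.4%). Ifih1, Zbp1, Gbp7, Usp18, Igtp, Irgm2, Xaf1 and Slfn5 were called in opposite directions by the 2 scalings. Under both, Rsad2 (-2.86 ± 0.218 by TMM, -1.90 by UMI totals) and Ifit1 (-2.10 ± 0.174 and -1.14) were lower in monocytes, and Ifi205 (1.97 ± 0.202 and 2.91), Ifi44 (1.55 ± 0.171 and 2.49) and Bst2 (1.45 ± 0.112 and 2.39) higher, with an adjusted p of at most 1.51e-11 by TMM.
The dendritic cells differed widely. In cDC1 against Cd209a DC, 39 genes were lower and 1 higher (12.4% and 11.3%): Ifi205 was higher (1.08 ± 0.196, adjusted p = 2.24e-05), and Ifit3 (-2.92 ± 0.265, adjusted p = 5.65e-13) and Oas2 (-2.81 ± 0.335, adjusted p = 2.17e-09) were lower. Ifit3 stood at 0.526, 0.248, 0.137 and 0.0711 in cDC1 and at 2.14, 2.30, 1.93 and 2.06 in Cd209a DC.
In mature DC against Cd209a DC, 6 were higher and 28 lower (24.9% and 23.0%), with Gbp5 (1.49 ± 0.18), Oasl1 (1.36 ± 0.223) and Gbp2 (1.23 ± 0.221) higher and Ifi205 (-1.67 ± 0.204) and Oas2 (-1.64 ± 0.251) lower. In plasmacytoid DC against Cd209a DC, 4 were higher and 28 lower (15.3% and 15.6%), with Bst2 (1.78 ± 0.114), Gbp4 (1.50 ± 0.216) and Ifi44 (0.74 ± 0.18, adjusted p = 0.000932) higher and Ifi205 (-2.33 ± 0.233) and Ifit3 (-2.07 ± 0.254) lower.
Among lymphocytes fewer genes differed. In NK cells against CD8 T cells, 2 were higher, Ifi44 (2.08 ± 0.176, adjusted p = 1.82e-14) and Ifi204 (0.81 ± 0.168, adjusted p = 0.000175), and 12 lower (9.73% and 11.7%), among them Ifit3b (-1.78 ± 0.297, adjusted p = 3.98e-06). In Tregs against Cd4+ Foxp3- T cells, Gbp3 was higher (0.62 ± 0.168, adjusted p = 0.0309) and 5 genes were lower (0.795% and 1.68%), among them Ifi204 (-1.01 ± 0.188, adjusted p = 0.000401) and Slfn5 (-0.86 ± 0.150, adjusted p = 0.00014). The Gbp3 and Slfn5 calls were lost with the tumor left out of the fit, where 0 were higher and 1 lower, and Gbp3 also in 3 of the 4 fits without 1 tumor. The Ifi204 call in NK cells against CD8 T cells was lost with doubled gate limits.

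The pathway was also read outside the 43 genes, through 45 further genes from ligands to targets, of which 35 were tested. Of these, 28 were higher and 4 lower in monocytes (32.7% and 24% of all genes), 20 and 4 in Cd209a DC (22.0% and 11%), and 0 and 31 in tumor and stroma cells (39.3% and 37.5%). Mature DC had 20 and 9 (33.9% and 26.8%), but 17 and 14 under UMI totals (22.0% and 41.5%). In neutrophils 23 were higher and 7 lower (36.3% and 34%), but 12 and 16 under UMI totals (17.8% and 61.8%). Tregs had 8 and 17 (30% and 22.4%), but 17 and 13 under UMI totals (50.4% and 11.5%). Cd4+ Foxp3- T cells had 7 and 14 (20.7% and 15.3%), but 14 and 9 (39.8% and 5.64%), and Trdc+ T cells 3 and 12 (11.2% and 14.5%), but 6 and 6 (18.5% and 7.08%).
The ligands were scarce apart from interferon gamma. Ifng had 12540 UMIs and stood at 3.69, 2.60, 2.52 and 2.68 per 10000 in CD8 T cells and 2.16, 2.20, 1.88 and 1.75 in NK cells, with log2 fold changes of 5.63 ± 0.147 and 5.08 ± 0.165. Cd4+ Foxp3- T cells held 0.650, 1.87, 0.453 and 1.99. Ifnb1, which encodes interferon beta, had 86 UMIs in all, of which 7, 18, 0 and 2 lay in monocytes. The lambda interferons Ifnl2 and Ifnl3 had 34 and 21 UMIs, 32 and 16 of them in the monocytes of Csf1rfl/fl replicate 1.
The type I receptor chains were highest in plasmacytoid DC, Ifnar1 at 1.93, 2.41, 2.03 and 2.80 (log2 fold change 1.65) and Ifnar2 at 3.86, 3.52, 3.61 and 3.51 (1.98). The 2 chains of the interferon gamma receptor parted in NK cells, where Ifngr1 had its highest mean, at 3.35, 6.36, 4.47 and 4.53 (2.08), and Ifngr2 its lowest, at 0.0520, 0.0318, 0.0469 and 0.0423 (-3.18). Ifngr2 was highest in C1q macrophages, at 1.03, 0.972, 1.12 and 1.23 (1.88). Ifnlr1, the lambda receptor chain, was highest in neutrophils, at 0.0505, 0.0642, 0.0376 and 0.0897, as was its partner Il10rb, at 0.977, 1.75, 1.27 and 1.96.
Ifngr1 and Ifnar1 changed direction in neutrophils between TMM and UMI totals. Irf1, an early target of interferon gamma, was highest in neutrophils, at 2.58, 7.15, 3.91 and 4.25, with 2.91 ± 0.0884 by TMM and 1.77 by UMI totals. Among other targets, Cxcl10, a chemokine for T cells, was highest in monocytes (17.9 ± 0.837 per 10000), with C1q macrophages at 10.3 ± 2.19.

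The spread over single cells was measured after every cell was thinned to 2000 UMIs, which left out shallower cells and kept 2858 of 5439 neutrophils, 2534 of 2584 monocytes and 1325 of 1466 NK cells. Cells are not replicates, and these values are descriptions. The median cell held 31, 37, 27 and 30 UMIs of the 43 genes among monocytes of the 4 tumors, 23, 31.5, 22 and 22 among neutrophils and 5, 6, 5 and 6 among NK cells. Most cells of the high types held these transcripts: the top 10% of cells held 24.2% of the UMIs of the 43 genes in monocytes and 30.4% in neutrophils, and between 22.5% (plasmacytoid DC) and 36.4% (mature DC) over the 14 cell types. The variance over the mean of the UMIs per cell, which is 1 for random sampling alone, ranged from 5.08 in tumor and stroma cells to 25.1 in neutrophils.
At least 1 IFIT UMI was seen in 70.9%, 72.9%, 68.5% and 65.8% of thinned neutrophils and in 69.5%, 65.0%, 58.2% and 57.9% of thinned monocytes. The lowest shares were 14.6% in tumor and stroma cells and 15.2% in cDC1. Without thinning, the share of cells with an IFIT UMI was 77.8% in Ly6c2-high monocytes at a median of 5035 UMIs a cell, 69.1% in neutrophils at 2063, 34.2% in cDC1 at 11373 and 65.4% in tumor and stroma cells at 46425. No gated cell type is known to lack these genes, so these shares have no background level beside them.
Cells with an IFIT UMI also held more of the other genes. The mean UMIs of the 39 genes outside the IFIT family were 1.72 times (plasmacytoid DC) to 3.14 times (Trdc+ T cells) higher in cells with an IFIT UMI than in cells without, and the ratio was above 1 in every tumor of every cell type. For the GTPases the ratio was 3.52 in neutrophils and 1.82 in Tregs, and it fell below 1 in 2 tumor and cell type combinations, Trdc+ T cells of Csf1rfl/fl replicate 1 (0.804, 22 cells) and tumor and stroma cells of Lyve1CreCsf1rfl/fl replicate 2 (0.774, 45 cells).

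**Figure D4:**
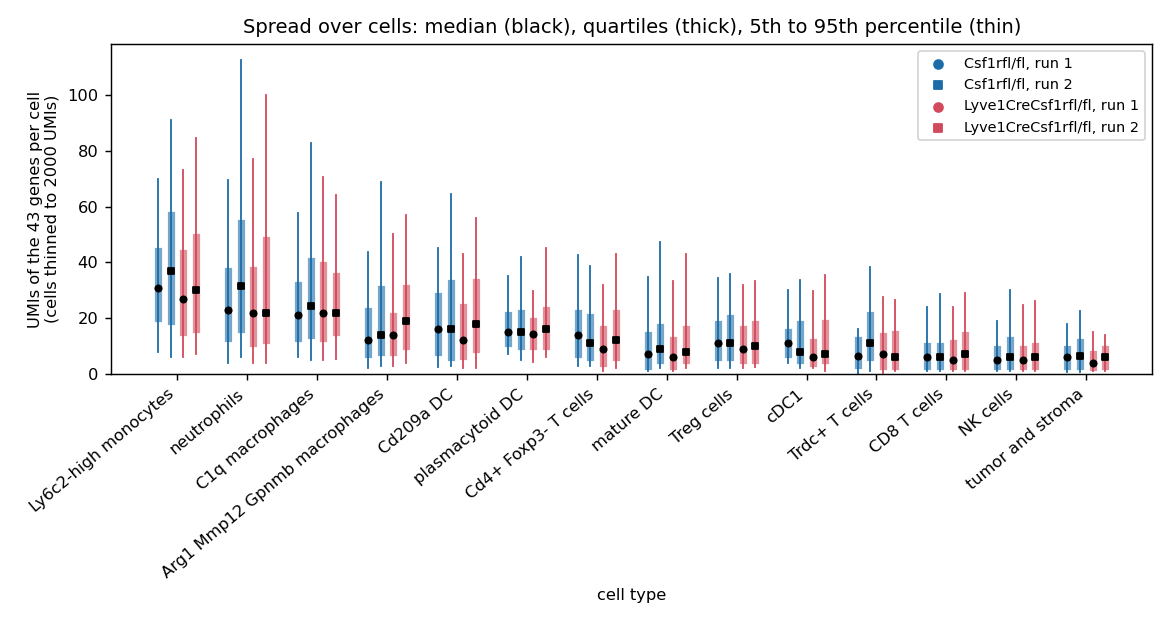
UMIs of the 43 genes per cell after thinning to 2000 UMIs (y axis), by cell type (x axis) and tumor, showing the median, the quartiles and the 5th to 95th percentile of cells. The median lies at 27 to 37 in monocytes, 22 to 31.5 in neutrophils and 5 to 6 in NK cells.

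The run that a tumor was in moved with the levels. Both run 2 tumors were above both run 1 tumors for 31 of the 43 genes in monocytes (43.1% of all genes tested there), 30 in Arg1 Mmp12 Gpnmb macrophages (27.5%), 29 in Cd209a DC (39.4%), 29 in mature DC (41.1%) and 28 in neutrophils (29.7%). It was 16 in CD8 T cells (46.9%), 13 in Cd4+ Foxp3- T cells (33.6%) and 7 in cDC1 (33.8%). For Gbp2 the run 2 tumors of monocytes stood at 4.04 and 3.59 and the run 1 tumors at 1.99 and 2.47. Each run held both genotypes, so this difference lay within both genotypes.

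The study compared the genotypes to learn what changes in tumors when macrophages with active Lyve1 are depleted through loss of Csf1r. It reported fewer of these macrophages in mammary glands by flow cytometry and in tumors by staining. In edgeR, none of the 587 tests of a gene in a cell type passed an adjusted p of 0.05 (0.0211% of all genes did in Tregs, 0.0196% in Arg1 Mmp12 Gpnmb macrophages, 0.0104% in tumor and stroma cells, 0.247% in plasmacytoid DC and 0% in the other cell types), and DESeq2 also called 0. The lowest adjusted p was 0.538. Changes of 2-fold would often be missed: in simulated counts 23.35% of them were recovered in CD8 T cells, 23.83% in Tregs and 0% in neutrophils and Trdc+ T cells. An unadjusted p under 0.05 was reached in 22 tests, 21 of them lower in Lyve1CreCsf1rfl/fl tumors, and the 1 higher was Ifit1 in CD8 T cells (0.46). By cell type these were 8 in Tregs (3.56% of all genes), 3 in Cd4+ Foxp3- T cells (2.94%), 3 in cDC1 (2.26%), 3 in Trdc+ T cells (2.1%), 2 in tumor and stroma cells (1.9%), 1 in plasmacytoid DC (2.66%), 1 in Arg1 Mmp12 Gpnmb macrophages (2.27%) and 1 in CD8 T cells (1.68%). By this fit there were 0 in C1q macrophages (2.98%), Cd209a DC (1.8%), mature DC (1.55%), monocytes (1.41%), NK cells (1.1%) and neutrophils (1.05%). With the run as a block, 78 tests had an unadjusted p under 0.05, 73 of them lower in Lyve1CreCsf1rfl/fl tumors. They included 16 in Tregs (7.05% of all genes), 12 in tumor and stroma cells (5.19%), 9 in monocytes (5.42%), 9 in cDC1 (5.42%), 7 in Cd4+ Foxp3- T cells (5.04%), 5 in mature DC (5.49%) and 5 in Trdc+ T cells (5.45%), all of them lower. With Scrublet doublets left out 11 tests reached that level, 6 lower and 5 higher. With doubled gate limits 30 of 547 did, all lower, among them 11 in cDC1 (3.28% of all genes) and 10 in Tregs (4.44%). The fitted value was lower in Lyve1CreCsf1rfl/fl tumors in 407 of the 587 tests (47.9% to 53.7% of all genes by cell type), in 319 of 569 with Scrublet doublets left out and in 298 of 592 without Csf1rfl/fl replicate 2. The median log2 fold change of the genes tested ran from -0.39 in Trdc+ T cells, where 35 of the 43 passed the filter on low counts, to 0.11 in Arg1 Mmp12 Gpnmb macrophages. The same medians were -0.14 in neutrophils, -0.11 in monocytes and 0.07 in C1q macrophages, the cell types with the highest levels. Without Csf1rfl/fl replicate 2 the median was 0.24 in Trdc+ T cells, 0.19 in neutrophils and 0.04 in monocytes. In Trdc+ T cells the 6 C1q macrophage markers summed to 0.550, 0.532, 0.250 and 0.240 and the 5 of Cd209a DC to 17.2, 9.57, 5.80 and 2.59, and with Scrublet doublets left out 0 tests there had an unadjusted p under 0.05 and 20 of 31 fitted values were lower. The part of these transcripts was not tested. In tumor and stroma cells the median was -0.29, and 0.19 with Scrublet doublets left out.
With 2 tumors a genotype, the lowest p of an exact two-sided permutation test is 0.333. Counted by range, both Lyve1CreCsf1rfl/fl tumors lay below both Csf1rfl/fl tumors for 13 of 43 genes in Cd4+ Foxp3- T cells (14.8% of all genes), 12 in tumor and stroma cells (10.3%), 11 in Tregs (12.9%), 11 in cDC1 (17.0%), 10 in Trdc+ T cells (13%) and 9 in monocytes (11%). They lay above for 0 genes in each of these except cDC1, with 2 (8.36%). In C1q macrophages 3 lay below and 3 above (17.0% and 11.7%), in CD8 T cells 1 and 3 (9.99% and 8.82%) and in Arg1 Mmp12 Gpnmb macrophages 2 and 3 (14.3% and 12.9%). The others had 7 below and 0 above in mature DC (12.4% and 8.65%), 6 and 2 in NK cells (9.4% and 7.74%), 5 and 0 in neutrophils (15% and 8.16%), 5 and 1 in Cd209a DC (13.1% and 9.24%) and 4 and 1 in plasmacytoid DC (11.6% and 14.1%).

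**Figure D5:**
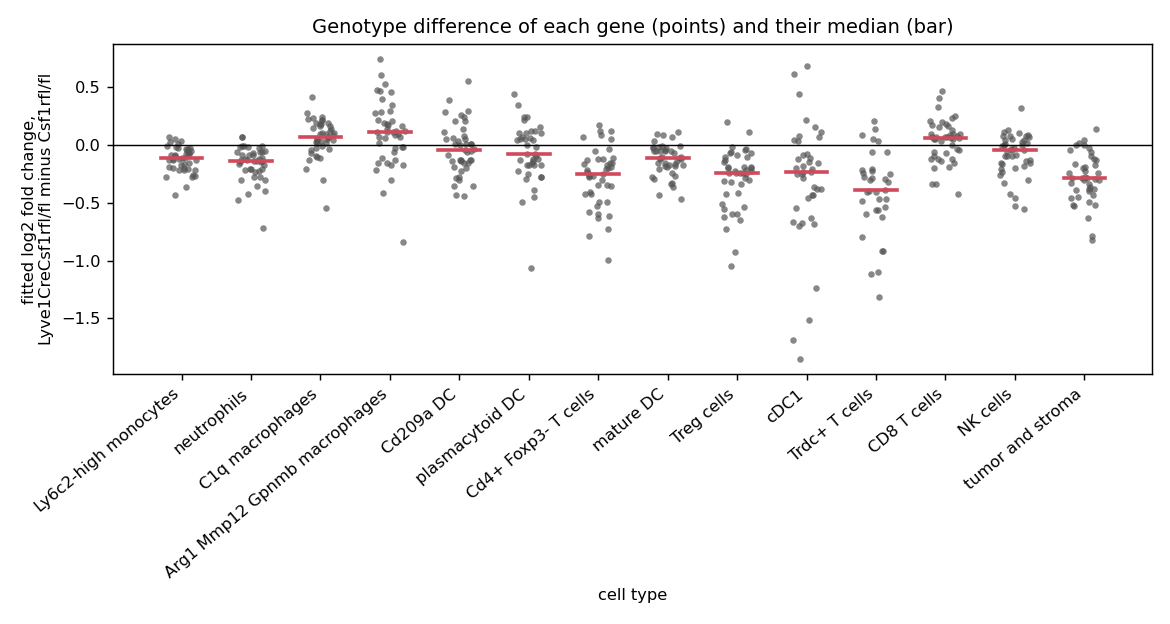
Fitted log2 fold change of Lyve1CreCsf1rfl/fl minus Csf1rfl/fl tumors for each of the 35 to 43 genes tested (points) by cell type (x axis), with a bar at the median. Medians lie between -0.39 (Trdc+ T cells) and 0.11 (Arg1 Mmp12 Gpnmb macrophages), and no point passed the adjusted threshold.

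Tregs held 8 of the 21 lower tests, in a fit where 3.56% of all genes had an unadjusted p under 0.05. The count lower was 2 with Scrublet doublets left out (1.36% of all genes) and 4 with DESeq2 (1.71%). It was 8 with RLE size factors (3.52%), 10 with doubled gate limits (4.44%) and 10 with no filter on low counts (3.65%). In Tregs 41 of the 43 fitted values were below 0 (47.9% of all genes were), as were 41 of 43 in neutrophils (53.7%), 38 of 43 in monocytes (49.6%), 38 of 43 in mature DC (48.1%) and 38 of 42 in tumor and stroma cells (48.6%). Without Csf1rfl/fl replicate 2 the count was 11 of 43 in neutrophils, 19 of 43 in monocytes and 21 of 43 in mature DC. It was 18 of 43 in mature DC without Lyve1CreCsf1rfl/fl replicate 1, and in tumor and stroma cells 7 of 41 with Scrublet doublets left out. Ifi204 stood at 1.20, 0.805, 0.456 and 0.524 per 10000, both Lyve1CreCsf1rfl/fl tumors below both controls, with a log2 fold change of -1.05 ± 0.272 (adjusted p = 0.538, and 0.0125 with the run as a block, which called 0.94% of all genes in Tregs). Irf7 stood at 3.95, 2.96, 2.17 and 2.32, with -0.65 ± 0.252 (adjusted p = 1.0, and 0.0280 with the block). The block called 1 further test of the 587, Rsad2 in tumor and stroma cells, at 0.543, 0.687, 0.323 and 0.384 (-0.79, adjusted p = 0.0455), where it called 0.363% of all genes.
The Treg difference changed with single tumors and with cells called doublets. The log2 fold change of Ifi204 was -0.63 without Csf1rfl/fl replicate 1, -1.40 without Csf1rfl/fl replicate 2 and -0.67 with Scrublet doublets left out. For Irf7 these were -0.31, -0.92 and -0.34. Neither gene was called with Scrublet doublets left out. A fit without 1 control tumor takes its spread from the other genotype alone, so only its fold change is given here. Transcripts on the marker lists of some other cell types moved with the Treg difference. Which cells they came from was not tested. The monocyte list holds Csf1r, the targeted gene, and summed to 7.93, 7.47, 7.91 and 9.66 per 10000 in CD8 T cells. In the Treg gate, the 7 markers of monocytes summed to 5.02, 5.86, 3.65 and 3.76 per 10000, with 6 of 7 below both controls in both Lyve1CreCsf1rfl/fl tumors. The 6 markers of C1q macrophages summed to 1.26, 0.755, 0.368 and 0.312, with 6 of 6 below, and the 5 of Cd209a DC to 20.6, 13.1, 9.26 and 12, with 4 of 5 below. The neutrophil markers summed to 5.02, 3.85, 4.89 and 2.93, and those of mast cells and basophils were at 0. Cells that passed the gate of a second lineage had been left out, which limits how high such sums can be. The part of these transcripts in the Treg result was not tested.
C1q macrophages themselves numbered 518, 361, 175 and 95, or 6.0%, 4.6%, 2.4% and 2.0% of the kept cells of each tumor. Their markers were lower in some other gates, given next, and in neutrophils (1.55, 1.18, 1.04 and 0.780). The sums overlapped between genotypes in Arg1 Mmp12 Gpnmb macrophages, Cd209a DC and mature DC. They also overlapped in monocytes (2.50, 2.14, 2.47 and 2.13) and in tumor and stroma cells (0.0895, 0.344, 0.0760 and 0.198). In these last 2 gates 38 of 43 and 38 of 42 fitted values were lower, as given above. The C1q macrophage markers were at 6.54, 1.15, 0.178 and 0.0948 in cDC1, 5.75, 3.80, 0.602 and 0.812 in plasmacytoid DC, and 1.06, 0.852, 0.566 and 0.302 in Cd4+ Foxp3- T cells. In CD8 T cells they were at 0.798, 0.483, 0.254 and 0.342, with 5 of 6 below, and in NK cells at 0.432, 0.493, 0.252 and 0.175, with 4 of 6 below. Of the genes tested, 15 of 43 had a lower fitted value in CD8 T cells, 27 of 43 in NK cells, 23 of 40 in plasmacytoid DC, 30 of 40 in cDC1 and 37 of 43 in Cd4+ Foxp3- T cells. Without Csf1rfl/fl replicate 1 and without Csf1rfl/fl replicate 2 the count was 6 and 26 of 43 in CD8 T cells and 36 and 18 of 43 in NK cells, and with doubled gate limits it was 29 of 43 in CD8 T cells. In cDC1 the largest fitted difference at an unadjusted p under 0.05 was that of Oasl1, at 0.907, 0.465, 0.109 and 0.285 (-1.85, adjusted p = 1.0), and Cmpk2 and Ifit3 were lower as well. The part of the marker transcripts in these values was not tested.

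Among the pathway genes outside the 43, none of the 440 tests between genotypes was called, and the lowest adjusted p, 0.0537, belonged to Cxcl10 in plasmacytoid DC, at 1.40, 1.05, 3.52 and 2.94 per 10000 (log2 fold change 1.33). With the run as a block this test was called (1.37, adjusted p = 7.13e-10), among 47 of 5255 genes called in plasmacytoid DC. Cxcl9 in C1q macrophages (0.62, adjusted p = 0.0432, among 44 of 8360 genes) was called as well. So was Ifitm3 in Tregs (-1.02, adjusted p = 0.00481, among 89 of 9470 genes). Ifitm3, which encodes a membrane protein that blocks viral entry, stood at 11.7, 5.44, 4.18 and 3.83 in Tregs. The block also called Ifitm3 in Trdc+ T cells (-1.69), Cxcl9 in tumor and stroma cells (-2.33) and Cxcl10 there (-0.95), all lower in Lyve1CreCsf1rfl/fl tumors. It called 17 of 2898 genes in Trdc+ T cells and 35 of 9633 in tumor and stroma cells. Ifitm3 was highest in monocytes (66.3 ± 11.5 per 10000), whose markers were lower in the Treg gate, as given above. The part of transcripts from other cell types in the Ifitm3 values was not tested.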

How the data were processed

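The authors aligned the reads of 2 gene expression libraries and 2 hashtag libraries with Cell Ranger 6.0.1 to mm10 and deposited UMI counts per gene and barcode and counts of each hashtag, both without normalization. They also deposited a table of scores, the corrected counts of SCTransform in Seurat for the cells they kept. That table served only to name the 28429 kept cells. A cell was given to the tumor with the higher normalized hashtag of its run. Cells with under 3 times the count of the other hashtag made up 0.218% to 6.82% of a tumor. Of the barcode sequences, 60 occurred in both runs, and 0 columns without a sample were left aside.

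The 43 genes, the role groups and the pathway and marker lists were chosen with earlier results of these data known. Gates were set on lineage markers alone, after the files were opened. A gate needs a minimum of UMIs (for example 3 of Cd3e, Cd3d, Cd3g and Trac for T cells), so it favours deeper cells. Monocytes were gated partly on Csf1r, the targeted gene. Cells of more than 1 lineage were left out as likely doublets, and Scrublet (scanpy 1.11.5), which called 21.3% and 12.8% of kept cells in runs 1 and 2, gave an alternative. Cell types needed 20 cells in every tumor. UMIs were summed per tumor and cell type (n = 2 tumors per genotype, 4 in all), filtered with filterByExpr, scaled by TMM and tested with edgeR 4.0.16 (quasi-likelihood, Benjamini-Hochberg adjusted p under 0.05 over all genes tested). Standard errors came from the log2 fold change and the F statistic. DESeq2 1.42.0, limma 3.58.1, R 4.3.3, Python 3.11.15, numpy 2.4.6, pandas 2.3.3, scipy 1.17.1 and matplotlib 3.10.9 were used. The fits were also run on simulated counts. In genotype fits of CD8 T cells, Tregs, neutrophils and Trdc+ T cells, 0% of 1.5-fold changes were recovered. For 2-fold changes it was 23.35%, 23.83%, 0% and 0%, and for 4-fold changes 93.9%, 95.8%, 70.3% and 74.1%. In the cell type fit, 98.5% of 2-fold changes in neutrophils were recovered. P-values of the genotype tests measure the spread between 2 tumors per genotype. In a genotype fit without 1 tumor, 1 genotype holds a single tumor, and the spread comes from the other genotype alone. The cell type and pair tests come from 1 fit of all cell types in the 4 tumors. Their p-values measure the spread left in that fit after the tumor block.

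The run pairs the tumors: the differences of run 2 minus run 1 in both genotypes correlated across genes at 0.205 to 0.51 by cell type (Pearson, genes with at least 10 UMIs in each tumor). The genotype fit has no run block as the main choice. Named are, per cell type or pair, up to 3 genes with the highest and 2 with the lowest fold change among those called and of the same sign in all 4 tumors, the gene with the most UMIs of each role group, the ligands with 10 or more UMIs, the receptors and Irf1. Genes outside that rule (Cxcl9, Cxcl10 and Ifitm3, genes called only with the run as a block, genes at an unadjusted p under 0.05, and the examples of run and motif) were chosen after their values were seen. Alternatives were other normalization, filter, tool, gates, doublets, hashtags and tumors left out. Counting sets the precision of single levels: a level of 0.1 per 10000 rests on few UMIs in the smaller cell types. The listed genes not analysed here number 2, and 1 pathway gene is not reported here.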

Additional observations from a re-analysis of the deposited data

Results flagged for a closer look

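Of 112 sums (14 cell types by all 43 genes and the 7 role groups), 3 held 1 tumor whose gap to the nearest other, over the range of the 4 tumors, was above Dixon's 95% limit for 4 samples. Chance alone flags about 1 in 20 such groups.

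In Trdc+ T cells, the sum of all 43 genes was 78.9 per 10000 in Csf1rfl/fl replicate 2, against 44.3 in Csf1rfl/fl replicate 1 and 43.2 and 44.1 in the Lyve1CreCsf1rfl/fl tumors (gap over range 0.967). The antiviral effectors in the same cells stood at 24.9 in that tumor, against 15.7, 15.5 and 15.2 (0.952). These cells numbered 26, 48, 57 and 54 by tumor.

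In Cd4+ Foxp3- T cells, the sum of the sensors was 9.14 in Lyve1CreCsf1rfl/fl replicate 1, below 12.5 and 12.4 in the controls and 13 in Lyve1CreCsf1rfl/fl replicate 2 (0.832).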

How the results depend on the processing

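Of the main counts and levels recomputed under the alternatives, 609 stayed within 1.5 times or within their spread, 71 moved and 15 became callable. Within these counts single genes could turn: 8 genes were called in opposite directions by TMM and UMI totals for monocytes against neutrophils, and 2 in neutrophils against the other cell types. Of the values of named genes, 881 kept direction and call and 9 lost the call. The alternatives without tumor and stroma cells and with UMI totals alone were chosen after seeing the data. Doubled gate limits left too few Trdc+ T cells to compare. Depth limits mostly the smaller cell types, where a level of 0.1 per 10000 rests on few UMIs. The counts of called genes that follow show only how far the main counts moved. Most stand without the share of all genes called under the same setting, so they are not read as an excess or a lack. The main shares are given with the main counts above.

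With the run as a replicate block, which pairs the tumors, 3 genotype tests were called (2 in Tregs and 1 in tumor and stroma cells, where 0.94% and 0.363% of all genes were called). With no filter on low counts 2 were called (1 in Tregs and 1 in cDC1, with 0.787% and 0.291% of all genes). Leaving out 1 tumor gave genotype calls in CD8 T cells, Tregs and cDC1, lower in Lyve1CreCsf1rfl/fl tumors, and in plasmacytoid DC, higher there. Each such fit leaves 1 genotype with a single tumor, so those calls carry no spread within that genotype. With no replicate block for the tumor, the counts were 3 higher in Cd4+ Foxp3- T cells, 0 lower in Arg1 Mmp12 Gpnmb macrophages, 8 lower in mature DC, 18 higher for monocytes against C1q macrophages, and 0 higher and 1 lower for Tregs against Cd4+ Foxp3- T cells. It changed no other call by over 1.5 times.

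With UMI totals, the counts higher were 20 in Cd4+ Foxp3- T cells, 2 in CD8 T cells, 7 in mature DC, 3 in NK cells, 5 in Trdc+ T cells, 13 in Tregs, 2 in tumor and stroma cells and 21 for monocytes against neutrophils. The counts lower were 3 in Cd4+ Foxp3- T cells, 29 in mature DC, 6 in neutrophils, 11 in Trdc+ T cells, 13 in Tregs and 14 for monocytes against neutrophils. With Scrublet doublets left out, the counts higher were 2 in CD8 T cells, 6 in cDC1, 3 in NK cells, 2 in Trdc+ T cells and 2 in tumor and stroma cells, and 2 were lower in Arg1 Mmp12 Gpnmb macrophages. With doubled limits, the counts higher were 15 in Arg1 Mmp12 Gpnmb macrophages, 3 in Cd4+ Foxp3- T cells, 2 in CD8 T cells and 2 in NK cells, with 0 lower in Arg1 Mmp12 Gpnmb macrophages and 2 lower for Tregs against Cd4+ Foxp3- T cells. In Trdc+ T cells, 3 were higher with DESeq2, 3 with RLE size factors and 2 with no filter. Without tumor and stroma cells, 9 were higher in mature DC, and 2 were lower in Arg1 Mmp12 Gpnmb macrophages and 2 in Cd209a DC.

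Without Bst2 and Isg20, the summed level was 118 in C1q macrophages, 36.2 in CD8 T cells, 51.5 in Tregs, 57.2 in plasmacytoid DC and 19.2 in tumor and stroma cells, and with doubled limits 120 in C1q macrophages. The share of cells with at least 3 UMIs of the 43 genes became 54.6% in tumor and stroma cells and 96.5% in monocytes at 1000 UMIs, and 58.9% and 97.4% with a minimum of 5 UMIs.

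Leaving out 1 tumor, the counts higher ranged from 4 to 7 in Cd4+ Foxp3- T cells, 1 to 2 in CD8 T cells, 1 to 3 in NK cells, 1 to 3 in Trdc+ T cells, 1 to 2 in tumor and stroma cells, 20 to 27 for monocytes against C1q macrophages, 2 to 5 for NK cells against CD8 T cells and 0 to 2 for Tregs against Cd4+ Foxp3- T cells. The counts lower ranged from 0 to 2 in Arg1 Mmp12 Gpnmb macrophages, 1 to 2 in Cd209a DC, 7 to 14 in Cd4+ Foxp3- T cells, 12 to 22 in Trdc+ T cells, 6 to 15 for NK cells against CD8 T cells and 2 to 6 for Tregs against Cd4+ Foxp3- T cells. The cause of these shifts was not tested.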
